A study of Gallus gallus with 9 samples.

Results

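The chicken Z chromosome was examined in the liver of 9 adult hens through all loci that the count table places on Z and that had a count over 1 CPM, the count scaled to the library total, in 3 or more libraries. The CPM values given per hen were in addition scaled by edgeR's TMM factors. Of 1102 loci on Z, 551 (50.0%) passed this filter, and they were set against the 10524 of 18343 autosomal loci (57.4%) that passed the same filter. They made up 4.47% of the 12324 loci that passed in the whole table of 22082. Among the 551 were 477 previously identified genes and 74 loci without a gene name.

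In birds the female is the heterogametic sex: hens carry a single Z chromosome and a W chromosome, whereas cocks carry a pair of Z chromosomes. Chickens are known for balancing this difference in gene dose gene by gene rather than over the whole chromosome, so that many Z genes are expressed at a lower level in hens than in cocks. A small number of genes, the gametologs, kept a copy on both Z and W, and hens express those from both chromosomes. The sex determining gene DMRT1, which acts in the gonad, lies on Z. In the liver, Z carries genes of cholesterol synthesis, gluconeogenesis and methionine metabolism as well as the receptor for growth hormone.

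All 9 animals were Isa Brown laying hens of 55 weeks of age, 3 per group, and every hen gave 1 liver RNA library. In the albumen-deprived group, 3 ml of albumen was taken from the egg on day 1 of incubation and replaced with saline. In the sham-manipulated group the egg shell was opened without exchange of albumen, and the eggs of the non-manipulated group were left alone. As no cocks were studied, a Z level could be set only against the autosomes of the same hens.

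The libraries held between 13720872 and 21747636 counts, so that 1 CPM stood for 13.7 to 21.7 counts. The defining markers of hepatocytes (ALB, APOA1, TTR and FGB) summed to between 107946 and 148421 CPM in each library. Counts on W, between 881 and 1450 per library, were present in all 9 hens, which fits the label of female. The 3 W loci of the highest level were ENSGALG00000014441 (4.41 ± 0.304 FPKM, SD, n = 9), SMAD2 (3.58 ± 0.467 FPKM) and ENSGALG00000009227 (3.12 ± 0.409 FPKM). In whole liver, fewer cells of a type and less RNA per cell cannot be told apart.

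The first question was at which level the single Z was expressed. Levels were compared between loci as FPKM, the count per kilobase of locus length after scaling to the library total. The median Z locus stood below the median autosomal locus in all 9 livers. On the log2 scale, the ratio of the Z median to the autosomal median was -0.35, -0.36 and -0.30 in the albumen-deprived hens, -0.46, -0.30 and -0.42 in the sham-manipulated hens, and -0.28, -0.40 and -0.40 in the non-manipulated hens. The mean was -0.36 ± 0.06 (SD, n = 9), which corresponds to a Z level of 0.778 times the autosomal level, with a range between hens of 0.729 to 0.824. Every hen lay below 0, an equal level, and every hen lay above -1, the value of a level proportional to copy number. In both cases the exact two-sided sign-flip permutation test gave P = 0.00391, the smallest value that 9 hens allow. This test covers the spread between hens, not the choice of genes on each chromosome. Loci under the floor of 1 CPM were left out on both sides. Among the loci kept, a level proportional to copy number need therefore not give exactly -1, and the value it would give was not tested. Over all loci with a count above 0 in at least 1 library, the Z level was 0.810 times the autosomal level. The ratio was 0.786 when autosomal loci were weighted to the GC content of Z loci (median 42.8% on Z, 46.1% on autosomes), 0.838 in CPM without division by length and 0.683 with the FPKM values the authors deposited.

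The ratio of Z to autosomes was also taken at 5 percentiles of FPKM. Both sets of loci were cut at the same floor of 1 CPM, which can draw their low percentiles together, and the part of the filter in the values was not tested. At the 10th percentile of each hen, Z loci had 0.896 times the FPKM of autosomal loci, and at the 25th percentile 0.894 times. At the 75th percentile the ratio was 0.707, the lowest of the 5 percentiles measured, and at the 90th percentile it was 0.819. Expressed on the log2 scale, the ratios were -0.16 ± 0.05 (SD over 9 hens) at the 25th and -0.50 ± 0.07 at the 75th percentile, and the ranges of the hens at these points did not overlap. Z was thus farther from the autosomes at the 75th percentile than at the 25th, while the most abundant loci came closer again.

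**Figure D1:**
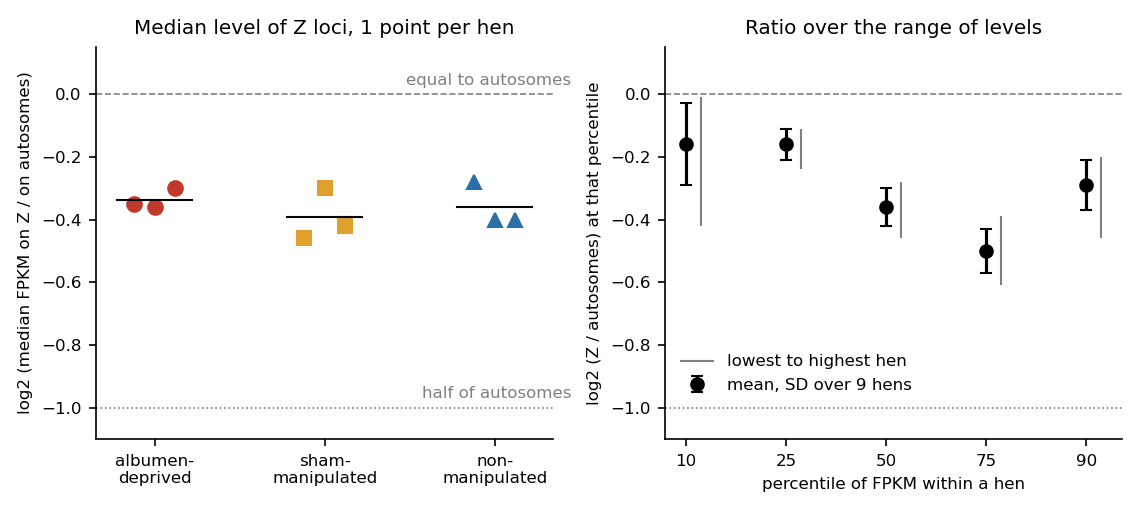
Left, log2 of the median FPKM of Z loci over that of autosomal loci, 1 point per hen with a line at the group mean, between -0.46 and -0.28 in the 9 hens; the dashed line marks an equal level and the dotted line a level proportional to copy number. Right, the same ratio at the 10th to 90th percentile of FPKM, as mean and SD of 9 hens with the lowest and highest hen as a grey line; it was lowest at the 75th percentile.

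Among the 28 chromosomes with at least 50 loci past the filter, Z had the second lowest median, at 3.00 FPKM. Autosomes ran from 2.70 FPKM on chromosome 24 to 5.55 FPKM on chromosome 22, and Z was below 26 of the 27 autosomes in each of the 9 hens. Chromosome 24 was the only one of these autosomes with a median below that of Z. Of the 5 large autosomes, chromosomes 1 to 3 were closer to Z than the autosomes as a whole, and chromosomes 4 and 5 were farther from it. Relative to chromosome 1 the Z level was 0.856, to chromosome 2 it was 0.882, to chromosome 3 it was 0.871, to chromosome 4 it was 0.753 and to chromosome 5 it was 0.732. Each of these 5 differences had the same sign in 9 of 9 hens (exact sign-flip permutation test, P = 0.00391, adjusted over 5 tests 0.00391). Here too the test covers the spread between hens, not the choice of genes on each chromosome, so it does not set Z apart from other chromosomes. On the log2 scale Z differed least from chromosome 2, by -0.18 ± 0.06 (SD, n = 9).

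**Figure D2:**
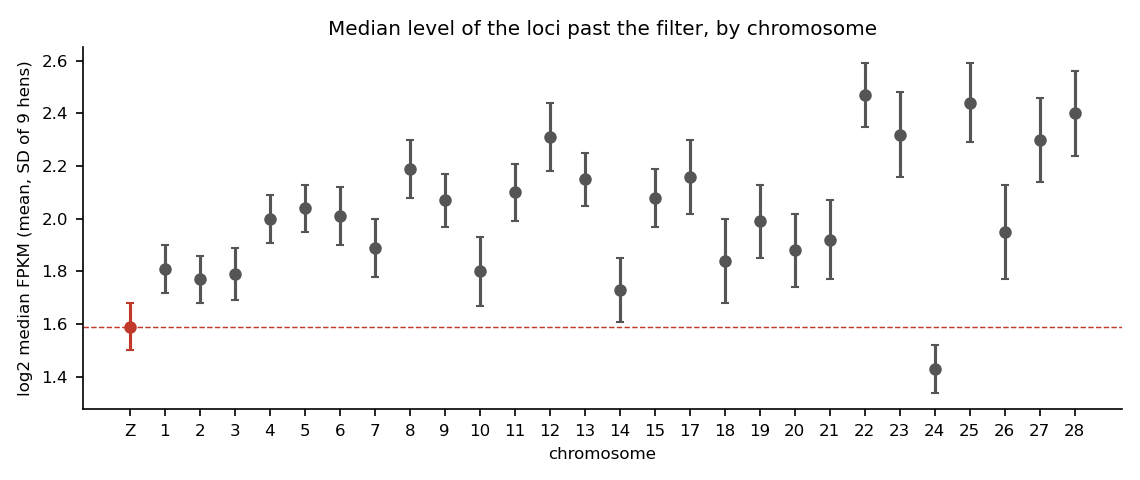
Median FPKM of the loci past the filter on the log2 scale, for Z (red) and the autosomes with at least 50 such loci; points are the mean and bars the SD of 9 hens, and the dashed line repeats the level of Z. Z stood at 1.59 on this scale, above chromosome 24 only.

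No difference between treatments was detectable in the level of Z as a whole. The mean log2 ratio of Z to autosomes was -0.34 ± 0.03 in albumen-deprived hens and -0.36 ± 0.07 in non-manipulated hens (SD, n = 3 each), a difference of 0.02 (exact two-sided permutation test, P = 0.600). Set against the sham-manipulated hens, at -0.39 ± 0.08, the albumen-deprived hens differed by 0.05 (exact permutation test, P = 0.400). Sham-manipulated and non-manipulated hens differed by -0.04 (exact permutation test, P = 0.50). Adjusted over the 3 comparisons each P was 0.600, and groups of 3 hens cannot give a value below 0.1. The ranges of the 3 groups overlapped.

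Z also took a stable share of the liver's transcripts, 3.37% to 3.83% of all counts per hen. Among the 10 loci with the highest FPKM were RPL37 of the large ribosomal subunit (583 FPKM), SEPP1, the selenium carrier that the liver releases into plasma (511 FPKM), and RPS6 and RPS23 of the small ribosomal subunit (491 and 365 FPKM). FBP1, which catalyses a late step of gluconeogenesis, stood at 339 FPKM, HMGCS1, an early enzyme of cholesterol synthesis, at 318 FPKM, BHMT, which remakes methionine from homocysteine, at 290 FPKM, and the lysosomal protease CTSL2 at 253 FPKM. XLOC_021961, also among the 10, has a length of only 55 bases and 118 to 477 counts in the albumen-deprived hens, so that its 212 FPKM rests on a length close to that of a read.

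Of the abundant genes, RPS6 and CTSL2 varied little between the hens. RPS6 had 457, 512 and 484 CPM in albumen-deprived hens, 469, 576 and 517 CPM in sham-manipulated hens, and 518, 539 and 483 CPM in non-manipulated hens. CTSL2 had 379, 354 and 347 CPM in albumen-deprived, 299, 368 and 356 CPM in sham-manipulated, and 377, 362 and 341 CPM in non-manipulated hens. In both genes the groups overlapped, and the highest hen exceeded the lowest by 1.26-fold and 1.27-fold. HMGCS1 was less even, at 4045, 2857 and 3257 CPM in albumen-deprived, 1958, 4203 and 2849 CPM in sham-manipulated, and 3736, 3721 and 3945 CPM in non-manipulated hens. Its lowest and its highest value were both in the sham-manipulated group. BHMT, whose values are given further below, was uneven as well.

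Ribosomal proteins allow a comparison of Z and autosomal genes whose products are needed in like amounts. The 4 ribosomal protein genes found on Z had a median of 427 FPKM, against 384 FPKM for 54 autosomal ones. Over the hens, the log2 ratio averaged 0.15 and lay between 0.02 and 0.33, above 0 in every hen. RPL37 ranked 13th from the top among the 58 genes, RPS6 20th, RPS23 31st and RPL17L 49th at 178 FPKM. So the lower level of the median Z locus was not seen in the median of these 4 genes, though RPS23, at 365 FPKM, and RPL17L were below the autosomal median. This is a description of 4 loci and not a test. Of 10 listed subunits of the ribosome and the respiratory chain, 6 were found on Z and passed the filter, with a median of 271 FPKM. Their median log2-fold changes were -0.10, -0.11 and -0.01 for albumen-deprived against non-manipulated, albumen-deprived against sham-manipulated and sham-manipulated against non-manipulated hens. With edgeR's quasi-likelihood test 0 of the 6 had a P under 0.05 in each of the 3 comparisons. In the same order 3.23%, 7.13% and 5.28% of all loci did, and 6 loci are too few to set apart from these shares.

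The gametologs found on Z by symbol stood high among Z loci at their median. Of 20 symbols of gametologs, some of them aliases, 9 were found on Z, and these 9 passed the filter. Their median was 14.4 FPKM, between 12.3 and 18.7 in the 9 hens, against 2.94 FPKM for the other 542 Z loci and 3.86 FPKM for autosomal loci. With previously identified genes alone, the median was 3.28 FPKM for 468 other Z genes and 4.28 FPKM for autosomal genes. Highest of the 9 gametologs were ATP5A1, the catalytic-head subunit of mitochondrial ATP synthase (110 FPKM), and BTF3, a factor of nascent protein handling (45.5 FPKM). The ATPase VCP, which extracts ubiquitinated proteins, had 33.9 FPKM and the RNA-binding HNRNPK 21.3 FPKM. Lowest of the 9 were CHDZ, a chromatin remodeller, with 2.95 FPKM, and UBE2R2, a ubiquitin-conjugating enzyme, with 3.84 FPKM. The range from 2.95 to 110 FPKM spans most of the scale, so high expression was not shared by all 9. The search by symbol missed MADH2, the Z copy of the signal mediator SMAD2, and CHPKCI, the Z copy of the nucleotide hydrolase HINT1, which were found after the values were seen and count among the other 542. KCMF1, MIER3, NIPBL, RASA1, ZFR and ZSWIM6 matched no locus by symbol, and UBAP2 and ZNF532 matched none on Z. Gametologs outside the list were not sought, so the other 542 may hold more of them. MADH2 had 2.25 FPKM, below all 9, and CHPKCI 88.2 FPKM, and with both the median of the 11 was 14.5 FPKM. Since the authors left out reads that fell on several loci, reads that fit a Z and a W copy equally well may be missing from these counts.

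Of the 9 gametologs, GOLPH3 had an unadjusted P under 0.05 between albumen-deprived hens and non-manipulated hens, where 3.23% of all loci did. HNRNPK had one between albumen-deprived hens and sham-manipulated hens, where 7.13% did. Between sham-manipulated hens and non-manipulated hens 0 of the 9 did, against 5.28%. These counts are too small to set apart from the shares of all loci. ATP5A1 had 198, 196 and 180 CPM in albumen-deprived hens, 175, 197 and 172 CPM in sham-manipulated hens, and 178, 175 and 174 CPM in non-manipulated hens. GOLPH3, a Golgi membrane protein, had 40.1, 37.8 and 41.5 CPM in albumen-deprived hens, against 49.9, 50.7 and 43.4 CPM in non-manipulated hens, a log2-fold change of -0.27 ± 0.11 (SE, edgeR adjusted P = 1.00). HNRNPK was lower in the albumen-deprived than in the sham-manipulated hens by a log2-fold change of -0.28 ± 0.12 (edgeR adjusted P = 0.694). The other 7 had P-values over 0.05 in each comparison. Over the 9, the median log2-fold change was 0.04 for albumen-deprived against non-manipulated hens, -0.12 against sham-manipulated hens, and 0.05 for sham-manipulated against non-manipulated hens. Over all loci tested these medians were 0.01, -0.01 and 0.01.

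The level of Z was uneven along the chromosome. Over 17 intervals of 5 Mb, numbered from the start of the Galgal4 sequence, 16 had a median below that of the autosomes (1.95 on the log2 FPKM scale). Some of these were close to it: interval 8 stood at 1.94 ± 0.13 (SD over 9 hens), interval 5 at 1.92 ± 0.11, interval 17 at 1.89 ± 0.24 and interval 2 at 1.88 ± 0.18. Only interval 15, between 70 and 75 Mb, was above the autosomes, with a median of 4.31 FPKM over 34 loci. It contains ACO1, the cytosolic aconitase that also senses iron (175 FPKM), CDO1, which breaks down cysteine (147 FPKM), and HSD17B4 of peroxisomal fat oxidation (108 FPKM). The lowest was interval 7, between 30 and 35 Mb, with 1.46 FPKM over 28 loci. This interval was low in its median but not in all of its genes, for it holds RPS6 (491 FPKM) and the lipid droplet protein PLIN2 (24.2 FPKM). On the log2 scale the 2 intervals stood at 2.11 ± 0.12 and 0.54 ± 0.17 (SD over 9 hens), so their difference was larger than the spread between hens. That spread does not cover which loci fall in an interval, as the same loci were measured in every hen. The 2 intervals were picked as the extremes of the 17, and autosomes were not cut into intervals for comparison.

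The other low stretches were interval 16 (75 to 80 Mb, 1.89 FPKM), where just 10 of 38 loci passed the filter (26.3%), and interval 4 (15 to 20 Mb, 2.33 FPKM), with 13 loci without a name among its 43. The share of loci past the filter was highest in interval 11, at 65.2%, and in interval 5, at 65.1%. Interval 14 (65 to 70 Mb) moved most from hen to hen, with an SD of 0.49 on the log2 scale over its 28 loci. Its group medians were 1.54 in albumen-deprived, 1.87 in sham-manipulated and 1.60 in non-manipulated hens.

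DMRT1 lies in interval 6, between 25 and 30 Mb, whose median of 3.00 FPKM equalled that of Z as a whole. DMRT1 itself had at most 1 count in any hen, and so had its neighbours DMRT2 and DMRT3, members of the same gene family. None of the 6 genes of gonadal sex, germ line or pigment on Z passed the filter. The germ cell helicase DDX4 and the melanocyte transporter SLC45A2 had at most 2 counts in a hen, and the pigment enzyme TYRP1 had none. The median of interval 6 therefore comes from other genes, the highest of them with a name being the glycine-cleaving enzyme GLDC (16.3 FPKM) and the chromatin remodeller SMARCA2 (12.5 FPKM).

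**Figure D3:**
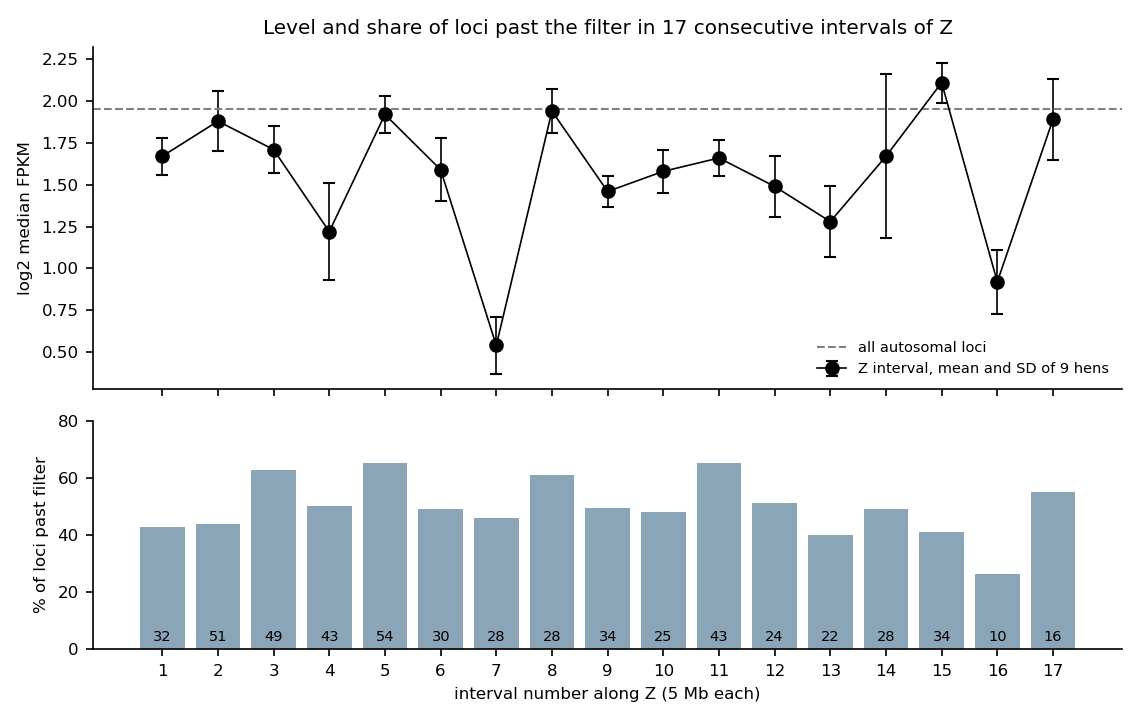
Upper, median FPKM on the log2 scale of the Z loci past the filter in 17 consecutive intervals of 5 Mb, as mean and SD of 9 hens, with the autosomal median as a dashed line. Lower, share of the loci of each interval that passed the filter, with their number at the foot of the bar. Interval 15 alone lay above the autosomes, interval 7 lay lowest and interval 14 had the largest SD.

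The second question was which Z loci differed between the treatments. With the cut-off for DE genes of P under 0.001 and a log2-fold change over 1, edgeR's quasi-likelihood test found 0 of 551 Z loci in each comparison. Of all loci tested, this rule called 0.0487% between albumen-deprived hens and non-manipulated hens, 0.105% between albumen-deprived hens and sham-manipulated hens, and 0.0649% between sham-manipulated hens and non-manipulated hens. After Benjamini-Hochberg adjustment no locus on any chromosome was under 0.05. The smallest adjusted P on Z was 1.00 between albumen-deprived hens and non-manipulated hens, 0.475 between albumen-deprived hens and sham-manipulated hens, and 0.906 between sham-manipulated hens and non-manipulated hens. In the same order of comparisons, edgeR's likelihood ratio test called 1, 4 and 1 DE loci on Z, where it called 0.130%, 0.430% and 0.268% of all loci. The Wald test of DESeq2 called 1, 4 and 0, where it called 0.130%, 0.365% and 0.227%. Of the 4, XLOC_021509, XLOC_021510 and XLOC_021911 overlap or adjoin each other and are not separate calls. XLOC_021510 and XLOC_021911 also passed the filter only through the hens in which they were high, which favoured a call. XLOC_021940 was under 1 CPM in all sham-manipulated hens and so passed the filter without them, which favoured its call too.

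At an unadjusted P under 0.05, 18 Z loci (3.27%) differed between albumen-deprived hens and non-manipulated hens, where 3.23% of all loci did. Of these 10 were higher and 8 lower in albumen-deprived hens, where 1.66% of all loci were higher and 1.57% lower. Between albumen-deprived hens and sham-manipulated hens 39 differed (7.08%), against 7.13% of all loci. Here 25 were higher and 14 lower in albumen-deprived hens, against 4.11% and 3.02% of all loci. Between sham-manipulated hens and non-manipulated hens 24 loci differed (4.36%), against 5.28% of all loci, and of these 8 were higher and 16 lower in sham-manipulated hens, against 2.30% and 2.98%. Each overall share was near that of all loci. The median log2-fold change of Z loci was -0.01, 0.01 and -0.02 in these 3 comparisons, and that of autosomal loci 0.01, -0.01 and 0.01. The loosened cut-off, P under 0.005 and a fold change over 1.5, was passed by 1, 5 and 0 Z loci, where it called 0.243%, 0.730% and 0.389% of all loci.

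The count of 18 depended on single hens. It was 10 without the first albumen-deprived hen, where 2.47% of all loci were called, and 28 without the third, where 3.70% were. It was also 28 without the second non-manipulated hen, where 2.86% of all loci were called. The count of 24 was 15 without the first and 43 without the second non-manipulated hen, where 3.39% and 6.38% of all loci were called. It was 14 without the first sham-manipulated hen, where 4.40% were. The share of all loci thus moved with single hens as well.

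The differences of single loci given next had an unadjusted P under 0.05 unless stated, and none was under 0.05 after adjustment over all loci. TBCA had the smallest P of all Z loci. It encodes a chaperone in the folding of beta-tubulin and lies at chrZ:22945443-22977979 (plus strand, 4 exons). Its values were 27.3, 27.5 and 29.2 CPM in albumen-deprived hens, 42.7, 35.3 and 41.4 CPM in sham-manipulated hens, and 26.8, 26.7 and 29.7 CPM in non-manipulated hens. The sham-manipulated hens stood apart from both other groups, which overlapped. Relative to sham-manipulated hens, albumen-deprived hens had a log2-fold change of -0.51 ± 0.11 (SE, edgeR adjusted P = 0.475). Between sham-manipulated hens and non-manipulated hens it was 0.52 ± 0.11 (edgeR adjusted P = 0.906). Both comparisons use the same sham-manipulated hens.

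In ARRDC3, ARSK and TDRD7 the mean of the sham-manipulated hens was also the lowest or the highest of the 3 groups. ARRDC3, an arrestin-like adaptor (chrZ:59156360-59170693), had 31.4, 33.2 and 31.6 CPM in albumen-deprived hens, 24.9, 20.7 and 14.5 CPM in sham-manipulated hens, and 28.4, 29.7 and 27.4 CPM in non-manipulated hens. Its log2-fold change between albumen-deprived hens and sham-manipulated hens was 0.68 ± 0.17 (edgeR adjusted P = 0.561). The 3 groups did not overlap, with the albumen-deprived hens highest. ARSK, a sulfatase of the lysosome, had 15.4, 13.9 and 13.3 CPM in albumen-deprived, 10.6, 11.5 and 11.1 CPM in sham-manipulated, and 14.7, 16.3 and 14.7 CPM in non-manipulated hens. Here the sham-manipulated hens were below all others, by a log2-fold change of -0.46 ± 0.12 against non-manipulated hens (edgeR adjusted P = 0.906). TDRD7, a component of RNA granules, had 17.2, 22 and 20.2 CPM in sham-manipulated hens, against 15.0, 14.5 and 14.5 CPM in non-manipulated hens, a log2-fold change of 0.44 ± 0.13 (edgeR adjusted P = 0.906).

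Among the loci of smallest P, ABCA1 and the CORO2A and TBC1D2 locus had the albumen-deprived hens above both other groups. ABCA1, the transporter that loads cholesterol onto apolipoprotein A-I (chrZ:54546940-54642132, minus strand, 53 exons), had 82.8, 95.1 and 77.1 CPM in albumen-deprived hens, 58.6, 52.2 and 58.9 CPM in sham-manipulated hens, and 65.9, 54.3 and 74.6 CPM in non-manipulated hens. The lowest albumen-deprived hen was above the highest hen of either other group. Its log2-fold change was 0.59 ± 0.14 against sham-manipulated hens (edgeR adjusted P = 0.554) and 0.39 ± 0.14 against non-manipulated hens (edgeR adjusted P = 1.00). The joined locus of CORO2A, an actin-binding coronin, and TBC1D2, a regulator of Rab GTPases (chrZ:70304527-70372823), had 39.7, 49.2 and 42.3 CPM in albumen-deprived hens, 24.4, 24.4 and 27.9 CPM in sham-manipulated hens, and 25.5, 21.1 and 36.6 CPM in non-manipulated hens. It differed by 0.78 ± 0.19 from sham-manipulated hens (edgeR adjusted P = 0.554) and by 0.66 ± 0.19 from non-manipulated hens (edgeR adjusted P = 1.00). Which of its 2 genes carried the difference cannot be read from a joined locus.

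Against non-manipulated hens, the smallest P of albumen-deprived hens belonged to ZDHHC21, a palmitoyltransferase (chrZ:31516143-31559786). It had 11.2, 12.9 and 8.87 CPM in albumen-deprived hens, against 6.34, 6.73 and 8.18 CPM in non-manipulated hens, a log2-fold change of 0.63 ± 0.17 (edgeR adjusted P = 1.00). The sham-manipulated hens, at 9.31, 9.52 and 9.68 CPM, overlapped the albumen-deprived hens and were above all non-manipulated hens. GGA.8237, an uncharacterised gene, had 7.81, 11.3 and 9.46 CPM in albumen-deprived hens, 8.85, 10.5 and 8.83 CPM in sham-manipulated hens, and 14.4, 14.0 and 11.9 CPM in non-manipulated hens. Both manipulated groups were below the non-manipulated hens, by log2-fold changes of -0.49 ± 0.17 for albumen-deprived (edgeR adjusted P = 1.00) and -0.51 ± 0.17 for sham-manipulated hens (edgeR adjusted P = 0.906). Both share the non-manipulated hens. The P of the albumen-deprived hens was over 0.05 without the first albumen-deprived hen and without the first non-manipulated hen.

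**Figure D4:**
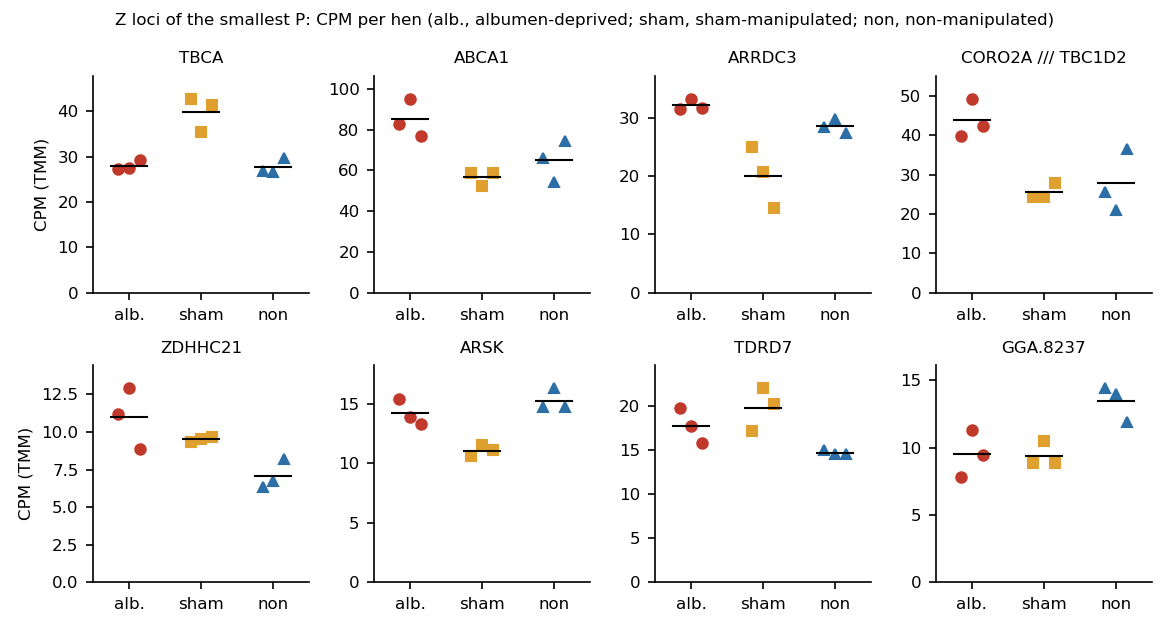
CPM per hen, scaled by TMM, of 8 Z loci from the 5 smallest P-values of each comparison; points are hens and lines group means, with albumen-deprived, sham-manipulated and non-manipulated hens from left to right. TBCA was highest in sham-manipulated hens, ARRDC3 and ARSK lowest there, and ABCA1 and the CORO2A and TBC1D2 locus highest in albumen-deprived hens.

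Of 11 genes of lipid and sterol metabolism found on Z, 9 passed the filter, with a median of 22 FPKM, against 4.01 FPKM for all loci tested. Of the 9, 1 had a P under 0.05 in each comparison, a count too small to set apart from the 3.23%, 7.13% and 5.28% of all loci. In both comparisons of albumen-deprived hens the gene was ABCA1, and between sham-manipulated hens and non-manipulated hens it was a gene lower in sham-manipulated hens. VLDLR, a receptor of triglyceride-rich lipoproteins known for its role in the ovary of laying hens, had 11.4, 3.36 and 12.2 CPM in albumen-deprived hens, against 3.46, 5.53 and 4.82 CPM in non-manipulated hens, a log2-fold change of 0.96 ± 0.43 with an unadjusted P over 0.05 (edgeR adjusted P = 1.00). Without the second albumen-deprived hen VLDLR met the cut-off for DE genes. This hen was below all non-manipulated hens, and the other 2 albumen-deprived hens were above them. LPL, which releases fatty acids from lipoproteins outside the liver, had 1 to 7 counts and did not pass the filter. The median log2-fold change of the 9 genes was 0.09 for albumen-deprived against non-manipulated hens and 0.12 against sham-manipulated hens.

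Enzymes of amino acid and carbohydrate metabolism were all past the filter, 14 of 14, with a median of 39.7 FPKM. Their median log2-fold change was 0.16 for albumen-deprived against non-manipulated hens, 0.18 for albumen-deprived against sham-manipulated hens, and -0.04 for sham-manipulated against non-manipulated hens, where all loci had 0.01, -0.01 and 0.01. These medians were not tested, and the list was chosen with earlier results of these data known. Against non-manipulated hens 0 of the 14 had a P under 0.05 with edgeR's quasi-likelihood test, where 3.23% of all loci did. Against sham-manipulated hens 2 were higher and 0 lower, where 7.13% of all loci were called. Between sham-manipulated hens and non-manipulated hens 0 were higher and 1, FBP2, was lower, where 5.28% were called. Counts among 14 genes are too small to set apart from these shares. FBP2, a sister gene of FBP1 known from muscle, had 3.94, 4.51 and 4.60 CPM in albumen-deprived hens, against 1.79, 2.83 and 2.90 CPM in sham-manipulated hens (log2-fold change 0.79 ± 0.25, edgeR adjusted P = 0.596). Non-manipulated hens had 3.98, 4.8 and 3.08 CPM of FBP2, and the sham-manipulated hens were below them by a log2-fold change of -0.65 ± 0.25 (edgeR adjusted P = 0.906). AGXT2, a mitochondrial aminotransferase, had 15.6, 4.62 and 6.70 CPM in albumen-deprived hens, against 3.30, 4.11 and 4.68 CPM in sham-manipulated hens (1.15 ± 0.42, edgeR adjusted P = 0.666). In AGXT2 the groups overlapped and 1 albumen-deprived hen stood far above the rest.

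Successive steps of betaine breakdown are represented on Z by BHMT and DMGDH. BHMT had 1513, 1563 and 1318 CPM in albumen-deprived hens, 1646, 1375 and 767 CPM in sham-manipulated hens, and 1011, 1044 and 1359 CPM in non-manipulated hens. DMGDH, the mitochondrial enzyme that takes the next step, had 148, 157 and 150 CPM in albumen-deprived hens, 130, 186 and 97.7 CPM in sham-manipulated hens, and 114, 107 and 130 CPM in non-manipulated hens. In DMGDH the albumen-deprived hens were above all non-manipulated hens, at a log2-fold change of 0.38 ± 0.21, with an unadjusted P over 0.05 (edgeR adjusted P = 1.00). For BHMT it was 0.36 ± 0.26, also with an unadjusted P over 0.05 (edgeR adjusted P = 1.00), and the groups overlapped. FBP1, finally, had 1218, 1156 and 1002 CPM in albumen-deprived hens, 968, 847 and 937 CPM in sham-manipulated hens, and 1022, 1061 and 857 CPM in non-manipulated hens, with P-values over 0.05 in each comparison.

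Of 14 receptors and signalling partners on Z, 11 passed the filter. With edgeR's quasi-likelihood test 0 of the 11 had a P under 0.05 in each comparison, a count too small to set apart from the 3.23%, 7.13% and 5.28% of all loci. GHR, the receptor through which growth hormone acts on the liver, was the highest at 175 FPKM. It had 856, 733 and 853 CPM in albumen-deprived hens, 757, 711 and 794 CPM in sham-manipulated hens, and 740, 882 and 761 CPM in non-manipulated hens. The groups overlapped, and the log2-fold changes were 0.04 ± 0.13 against non-manipulated and 0.11 ± 0.13 against sham-manipulated hens. PRLR, the prolactin receptor, shares its locus with gga-mir-6613. It had 41.3, 54.5 and 55.7 CPM in albumen-deprived hens, 36.7, 21.3 and 39.9 CPM in sham-manipulated hens, and 51.7, 26.9 and 58.2 CPM in non-manipulated hens. Here albumen-deprived hens lay above all sham-manipulated hens, at a log2-fold change of 0.63 ± 0.31 with an unadjusted P over 0.05 (edgeR adjusted P = 0.748). FST, the activin-binding follistatin, had 25, 42.9 and 22.9 CPM in albumen-deprived hens, 19.3, 25.9 and 16.5 CPM in sham-manipulated hens, and 26.0, 17.4 and 18.3 CPM in non-manipulated hens, with overlap between all groups.

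Complement and immune genes on Z had median log2-fold changes of -0.07, -0.08 and -0.04 in the 3 comparisons. Of 12 loci 10 passed the filter, with a median of 3.57 FPKM. C6 of the membrane attack complex was highest (48.4 FPKM), with 229, 161 and 195 CPM in albumen-deprived hens, 289, 307 and 209 CPM in sham-manipulated hens, and 146, 332 and 206 CPM in non-manipulated hens. Its groups overlapped. DAB2, an endocytic adaptor, was the only one with a P under 0.05: albumen-deprived hens had 17.5, 19.4 and 16.1 CPM, against 13.7, 15.3 and 12.5 CPM in sham-manipulated hens (log2-fold change 0.35 ± 0.13, edgeR adjusted P = 0.664). Sham-manipulated hens were also below the non-manipulated hens, at 18.0, 18.1 and 15.8 CPM (-0.32 ± 0.13, edgeR adjusted P = 0.906). So 1 of the 10 was called in each comparison with sham-manipulated hens, where 7.13% and 5.28% of all loci were. Between albumen-deprived hens and non-manipulated hens 0 were called, against 3.23%. These counts are too small to set apart from the shares of all loci. The summed T cell markers CD3E and CD8A lay between 14.2 and 28.8 CPM in the 9 hens, and the macrophage markers CSF1R and MARCO between 93.3 and 352 CPM, with the lowest value in a non-manipulated hen. The heterophil markers LECT2, GAL1 and GAL2 summed to 3.46 to 8.60 CPM in albumen-deprived hens, 8.53 to 36.4 CPM in sham-manipulated hens and 6.03 to 26.7 CPM in non-manipulated hens. Their part in these results was not tested.

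Of the genes of iron and heme, FECH, the last enzyme of heme synthesis, had 17.6, 16.5 and 17.1 CPM in albumen-deprived hens, 21.9, 35.3 and 19.2 CPM in sham-manipulated hens, and 15.5, 21.1 and 17.6 CPM in non-manipulated hens. All albumen-deprived hens were below all sham-manipulated hens, at a log2-fold change of -0.58 ± 0.22 (edgeR adjusted P = 0.681). Between sham-manipulated hens and non-manipulated hens it was 0.50 ± 0.22 (edgeR adjusted P = 0.906), with overlap, and both comparisons use the same sham-manipulated hens. The hemoglobin transcripts HBAA and HBAD summed to between 0.122 and 1.04 CPM per hen. ACO1 had 611, 553 and 630 CPM in albumen-deprived, 541, 653 and 561 CPM in sham-manipulated, and 529, 532 and 705 CPM in non-manipulated hens, and its groups overlapped.

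Beside the differences between groups stood large differences between single hens. Among Z loci with a mean over 10 CPM, 17 of 310 (5.48%) differed by more than 4-fold between the highest and the lowest hen, against 250 of 6251 (4.00%) autosomal loci. The SD of log2 CPM within groups had a median of 0.214 on Z and 0.193 on autosomes in this range of levels. The shares that follow cover all loci past the filter, without the floor of 10 CPM. Named Z genes exceeded 4-fold in 33 of 477 cases (6.92%), against 7.65% of named autosomal genes. Loci without a name did so in 30 of 74 cases on Z (40.5%), against 35.2% on autosomes. The median SD within groups was 0.395 in the 184 Z loci of lowest level and 0.209 in the 184 of highest level. Loci with and without a name were not matched for level, so the part of level in these shares was not tested. In these shares of loci with and without a name, a locus with 0 counts in a hen has no fold and was not counted as exceeding 4-fold. On Z this held for 4 loci.

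ARHGEF28, a guanine nucleotide exchange factor (chrZ:24425971-24555032, minus strand, 37 exons), had the highest SD of log2 CPM over the 9 hens (2.39) among named Z genes over 10 CPM. It had 6.20, 2.17 and 11.6 CPM in albumen-deprived hens, 2.66, 1.64 and 60.1 CPM in sham-manipulated hens, and 81.0, 35.1 and 130 CPM in non-manipulated hens. All albumen-deprived hens were below all non-manipulated hens, with a log2-fold change of -3.63 ± 1.27 (edgeR adjusted P = 1.00). Among the sham-manipulated hens 2 lay with the albumen-deprived hens and 1 with the non-manipulated hens. Without the third sham-manipulated hen, ARHGEF28 met the cut-off for DE genes against the non-manipulated hens in both manipulated groups, while its P between albumen-deprived hens and non-manipulated hens was over 0.05 without the first or the second albumen-deprived hen. RAB3C, a GTPase of vesicle release known from neurons, followed no group: it had 5.10, 40.0 and 182 CPM in albumen-deprived hens, 48.1, 6.89 and 21.5 CPM in sham-manipulated hens, and 8.69, 2.00 and 101 CPM in non-manipulated hens. Its highest hen exceeded its lowest by 90.9-fold.

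Of the 30 loci without a name that exceeded 4-fold, 18 lay within 20 kb of another such locus, in 6 clusters of 2 to 5 loci, and the other 12 did not. These clusters were found from the values themselves, so they are a description. The clearest, at chrZ:10537267-10564041, spans 26.8 kb between PRLR and IL7R and holds XLOC_021509, XLOC_021510 and XLOC_021911. XLOC_021510 had 34.0, 0.627 and 60.9 CPM in albumen-deprived hens, 0.463, 0.149 and 0.198 CPM in sham-manipulated hens, and 0.516, 24.1 and 0.336 CPM in non-manipulated hens. The first and the third albumen-deprived hens and the second non-manipulated hen were thus high, and the other 6 were under 1 CPM.

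The neighbours had the same hens high. XLOC_021509, whose span includes that of XLOC_021510, had 22.5, 3.31 and 37.1 CPM in albumen-deprived hens, 2.08, 1.14 and 2.31 CPM in sham-manipulated hens, and 4.13, 16.9 and 3.58 CPM in non-manipulated hens. XLOC_021911 had 5.94, 0.228 and 14.0 CPM in albumen-deprived hens, 0.174, 0.0496 and 0.0659 CPM in sham-manipulated hens, and 0.147, 4.60 and 0.168 CPM in non-manipulated hens. XLOC_021510 and XLOC_021911 were over 1 CPM in these high hens alone. They thus passed the filter through the hens in which they were high, which favoured a difference. As they overlap or adjoin, the loci of this cluster may be parts of a single transcript, and they are not independent counts of a difference. XLOC_021509 differed between albumen-deprived hens and sham-manipulated hens with a log2-fold change of 3.52 ± 0.90 (edgeR adjusted P = 0.561), and it met the DE cut-off without the second albumen-deprived hen. The named genes on both sides did not follow the pattern: PRLR is given above, and IL7R, a receptor of lymphocytes, had 18.8, 52.9 and 43.2 CPM in albumen-deprived hens, 53.7, 26.6 and 56.4 CPM in sham-manipulated hens, and 31.7, 18.5 and 67.9 CPM in non-manipulated hens.

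A second cluster, of 5 loci over 16.9 kb at chrZ:17088773-17105691, had other hens high. In all 5 the second albumen-deprived hen was the highest. XLOC_021940 had 1.36, 6.27 and 2.23 CPM in albumen-deprived hens, 0.636, 0.297 and 0.659 CPM in sham-manipulated hens, and 1.84, 0.333 and 2.30 CPM in non-manipulated hens. XLOC_021935 had 1.16, 4.68 and 2.5 CPM in albumen-deprived hens, 0.925, 0.149 and 0.988 CPM in sham-manipulated hens, and 2.80, 0.200 and 2.74 CPM in non-manipulated hens. In both, all sham-manipulated hens lay below all albumen-deprived hens, and the second non-manipulated hen was low as well. As XLOC_021940 was under 1 CPM in all sham-manipulated hens, it passed the filter without them, which favoured a difference from them.

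Further upstream, at chrZ:9716771-9768929, a pair of loci was low in the second non-manipulated hen. XLOC_021077 had 27.0, 49.3 and 42.8 CPM in albumen-deprived hens, 21.3, 27.8 and 49.5 CPM in sham-manipulated hens, and 13.9, 1.80 and 28.8 CPM in non-manipulated hens. XLOC_021904 had 2.58, 3.14 and 0.657 CPM in albumen-deprived hens, 0.347, 1.64 and 1.05 CPM in sham-manipulated hens, and 0.368, 0.133 and 0.504 CPM in non-manipulated hens. Its log2-fold change between albumen-deprived hens and non-manipulated hens was 2.62 ± 0.75 (edgeR adjusted P = 1.00), on 10 to 55 counts in albumen-deprived hens and 2 to 9 counts in non-manipulated hens. XLOC_021904 was under 1 CPM in all non-manipulated hens and so passed the filter without them, which favoured a difference. At chrZ:15821179-15835705 lies a cluster of 3 loci that were all highest in the first non-manipulated hen. One of them, XLOC_021927, was over 1 CPM in the 3 non-manipulated hens alone and so passed the filter through the group in which it was high, which favoured a difference. It had 0.347, 0.446 and 0.725 CPM in sham-manipulated hens, against 3.54, 1.40 and 1.34 CPM in non-manipulated hens (log2-fold change -2.04 ± 0.57, edgeR adjusted P = 0.906).

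**Figure D5:**
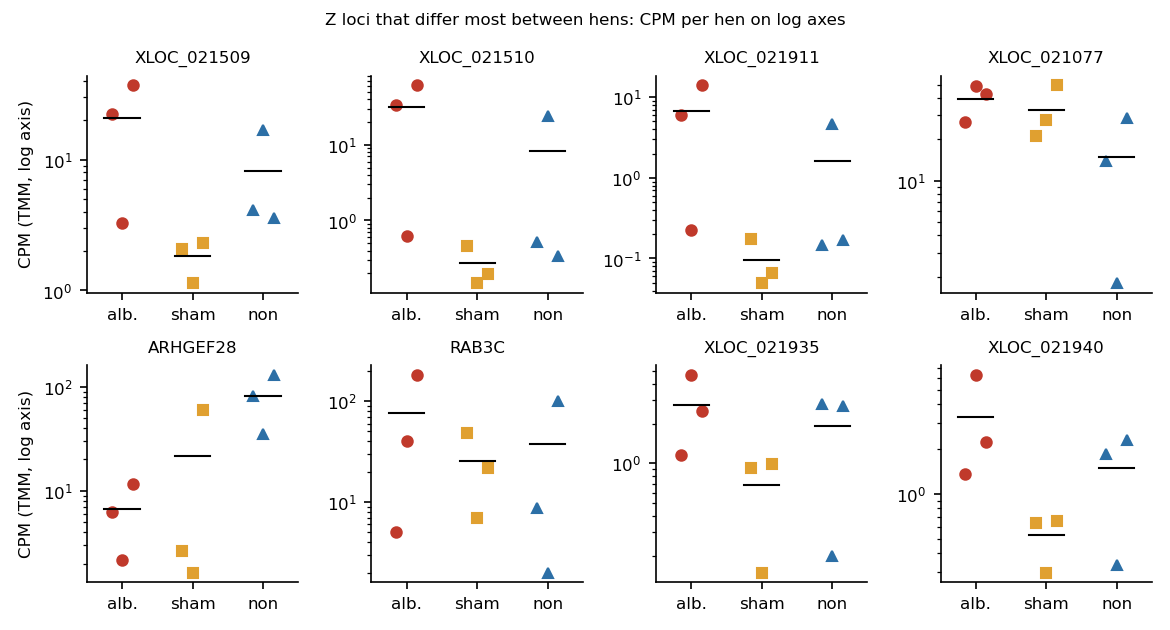
CPM per hen on log axes for 8 Z loci that differed most between hens or belong to the clusters described; points are hens and lines arithmetic group means, with albumen-deprived, sham-manipulated and non-manipulated hens from left to right. XLOC_021509, XLOC_021510 and XLOC_021911 were high in the same 3 hens, whereas ARHGEF28 was low in the albumen-deprived hens and in 2 of 3 sham-manipulated hens.

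Loci without a name had a larger share of P-values under 0.05 on Z than named genes, a difference that was not tested. Between albumen-deprived hens and sham-manipulated hens they were 9 of 74 (12.2%), 8 higher and 1 lower, against 8.37% of the 1983 loci without a name in the whole table. Named Z genes were 30 of 477 (6.29%), against 6.89% of 10341. Between albumen-deprived hens and non-manipulated hens the shares on Z were 5.41% without a name and 2.94% with a name, against 4.24% and 3.04% in the whole table. Between sham-manipulated hens and non-manipulated hens they were 6.76% and 3.98%, against 7.82% and 4.8%. Loci without a name thus had the larger share in the whole table too. Some of these loci belong to a cluster and count the same stretch repeatedly.

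Loci with a P under 0.05 lay in 10 of 17 intervals for albumen-deprived against non-manipulated hens, in 16 for albumen-deprived against sham-manipulated hens and in 12 for sham-manipulated against non-manipulated hens. The median log2-fold change of the 17 intervals lay between -0.07 and 0.15 for albumen-deprived against non-manipulated hens, between -0.11 and 0.11 for albumen-deprived against sham-manipulated hens, and between -0.18 and 0.05 for sham-manipulated against non-manipulated hens. In the same order, the most in an interval were 6 of 51 in interval 2 (11.8%, against 3.27% on Z), 7 of 49 in interval 3 (14.3%, against 7.08%) and 4 of 54 in interval 5 (7.41%, against 4.36%). Of all loci, 3.23%, 7.13% and 5.28% were called. These intervals were picked as the highest of the 17, so they do not show that calls gather in a part of Z. Interval 3 also holds XLOC_021509, XLOC_021510 and XLOC_021911, which overlap or adjoin each other. Interval 4 had the lowest median of sham-manipulated against non-manipulated hens, at -0.18, and the highest of albumen-deprived against sham-manipulated hens, at 0.11. It holds 2 of the clusters of loci without a name.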

How the data were processed

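Liver RNA of 9 hens was sequenced (single-end, not strand-specific). The authors mapped reads to Galgal4 with TopHat2 2.0.8b, built loci with Cufflinks 2.1.1 and counted with HTSeq 0.5.4p3, leaving out ambiguous reads. They deposited raw counts for 22082 loci, with locus length and GC content in percent. The authors' deposited FPKM values, normalized within GC bins and between samples, served as an alternative only. Their table of comparisons was not used.

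FPKM was computed from counts, library total and locus length. Loci with more than 1 CPM in 3 or more libraries were scaled by TMM and tested with the quasi-likelihood F-test of edgeR 4.0.16 under R 4.3.3, in a model of the 3 groups fitted to all 9 hens. P-values were adjusted over 12324 loci. Standard errors were derived from the F statistic. DE genes had P under 0.001 and a log2-fold change over 1, the thresholds of the study. The study applied them after another filter and normalization and with an earlier edgeR version, so its calls are not directly comparable. Exact permutation tests compared Z ratios. The test was checked on simulated counts. Totals of 13720872 to 21747636 counts cover counting error only.

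Alternatives were the likelihood ratio test, DESeq2 1.42.0, limma 3.58.1 on deposited FPKM, other filters, scalings and loci, a replicate block and leaving out each hen. No libraries were duplicates. Named genes were those of 8 lists, the 10 highest, the 5 of smallest P per comparison, the 5 most variable over 10 CPM and the top 3 of the extreme intervals; XLOC_021911, XLOC_021935, XLOC_021940 and SMARCA2 were chosen after their values were seen. Members and lists were chosen with earlier results of these data known. Some genes that this rule takes in are not reported here. No sequence is shown.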

Additional observations from a re-analysis of the deposited data

How the results depend on the processing

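The Z to autosome ratio kept its direction in all 20 alternatives, with an exact permutation P against 0 of 0.00391 to 0.00781. On the log2 scale it was -0.37 to -0.35 with 1 hen left out and -0.55 (deposited FPKM) to -0.26 (CPM) otherwise. The test against -1 was not repeated. Leaving out loci under 200 bases and leaving out joined loci were chosen after seeing the data. The difference of the ratio between groups was close to 0. It changed sign in some alternatives of both comparisons with non-manipulated hens, and in none between albumen-deprived hens and sham-manipulated hens. Between albumen-deprived hens and non-manipulated hens it was -0.00168 with deposited FPKM and -0.00126 to 0.0579 with 1 hen left out, where it was -0.000651 without the second non-manipulated hen. Between sham-manipulated hens and non-manipulated hens it was -0.0798 to 0.00405 with 1 hen left out, and between albumen-deprived hens and sham-manipulated hens 0.0220 to 0.0985.

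Without a filter, 42 of 908 Z loci had P under 0.05 between albumen-deprived hens and non-manipulated hens, where 3.25% of all loci did, and 40 of 908 between sham-manipulated hens and non-manipulated hens, where 4.83% did. With 1 hen left out these counts ran from 10 to 28 and from 14 to 43, and between albumen-deprived hens and sham-manipulated hens from 31 to 48. In the same order, the share of all loci called in these fits ran from 2.47% to 4.16%, from 3.39% to 6.81% and from 5.18% to 8.24%. DE loci numbered 1 (XLOC_021904) between albumen-deprived hens and non-manipulated hens with the likelihood ratio test and with the DESeq2 Wald test, and 1 (ARHGEF28) with the 2 groups alone. Between albumen-deprived hens and sham-manipulated hens they were 4 with the likelihood ratio test and 4 with the Wald test, and between sham-manipulated hens and non-manipulated hens 1 (XLOC_021927) with the likelihood ratio test. Leaving out 1 hen gave 0 to 1 DE loci in each comparison, VLDLR or XLOC_021509 without the second albumen-deprived hen and ARHGEF28 without the third sham-manipulated hen. The cause of these changes was not tested. The 5 loci of smallest P in each comparison stayed under 0.05 in 251 repeats, and GGA.8237 and ARHGEF28 did not in 4. Other named loci were not repeated one by one.

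Hens of the same number do not share a label beyond it, and their deviations correlated between -0.156 and 0.240, over 0.1 in 2 of 9 pairs. With the replicate number as a block, 16, 36 and 21 Z loci had P under 0.05 and 0 met the DE cut-off in each comparison. Of all loci, 3.42%, 6.76% and 4.87% had P under 0.05 and 0.0325%, 0.138% and 0.0487% met the DE cut-off.

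Precision is limited by 3 hens per group and, for loci near 1 CPM, by 13.7 to 21.7 counts.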
